A study of Mus musculus with 12 samples.

Results

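The Bcl2 family holds the proteins that decide whether the outer membrane of the mitochondrion is opened in apoptosis, and 9 of its genes were followed here in the small intestine of fed and fasted mice. The members were chosen by gene symbol, as every probe named Bcl2, Bcl2l, Mcl1, Bad, Bok, Pmaip1, Bax, Bid or Bak1 in the array annotation of the 12 h files. This gave 15 probes of 9 genes, of the 20280 probes and 18116 gene or clone names tested. Of these 15 probes, 6 carry the symbol in the fed files too. The list was drawn up with measured values known: Bcl2, Bcl2l, Mcl1, Bad and Bok stand in the study's own selection of changed apoptosis genes, made on these same samples, and Pmaip1 had one of the largest rises at 72 h. For these 6 genes the differences from fed are therefore a description and carry no test. Bax, Bid and Bak1 were added as family members and not for their values.

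Members of the family fall into 3 kinds. Bcl2, Bcl-xL (gene Bcl2l1, named Bcl2l on the array) and Mcl1 hold cells alive by binding the other kinds. Bax, Bak1 and Bok are the effectors that can form pores in the membrane, and Bad, Bid and Pmaip1 (Noxa) are BH3-only proteins, which carry a single short motif that either blocks the first kind or turns on the second. In the gut, whose epithelium is renewed all the time, cells are lost at the villus tip and by apoptosis in the crypt, and Mcl1 is an unstable protein that Noxa binds and sends to degradation.

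The animals were male FVB mice, 6 weeks old, killed fed or after 12, 24 or 72 h without food but with water. RNA of the small intestine, taken in its full thickness, was pooled from 2 mice, labelled with Cy3 and set against a Cy5-labelled reference from 6 fed mice on a 2-colour array, with 3 pools per time point and 12 arrays in all. Dyes were not swapped, and the fed mice were themselves in the reference. For fed pool 3 the source label of the reference names fed mice 5 and 6 alone, although its protocol names all 6. Metabolic cages kept the animals from eating bedding, and an infrared lamp warmed them from 24 h on. Values are log2(Cy3/Cy5), the pool over the reference, n = 3 pools unless stated, and a probe is called where limma's adjusted p is under 0.05 over all probes. Since whole intestine was used, fewer cells of a type and less RNA per cell cannot be told apart from the arrays alone. In tissue sections the study found no significant difference between fed mice and the longest fast in enterocyte or smooth muscle volume share, or in goblet cell number. From this the paper concludes that the tissue base of its arrays stayed the same. It gives no such shares for the shorter fasts. The files of the fed and 72 h arrays have one format and those of the others have a second. The 2 sets differ in the measured reference too. The median Cy5 signal was 124 to 142 on the fed and 72 h arrays and 392 to 627 on the 12 and 24 h arrays. The median Cy5 background was 70 to 81 on the former and 188 to 296.5 on the latter. In comparisons across the sets, the format, the signal range and the time of fasting cannot be told apart. The correlation between arrays of a time point was lowest in the 12 h (0.185 to 0.543) and fed groups (0.196 to 0.784), where fed pool 3 stood apart for several members, and highest at 72 h (0.812 to 0.853). Of the enterocyte markers on the array, 4 of 4 were well above background in every pool.

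Promoter sequence is shown for Bok, Mcl1 and Bad, the members with promoters in the reference table whose 72 h call held without any single array of the 2 time points compared. Each run is the 250 bases before a RefSeq start site in build GRCm38.p6, read 5′ to 3′ on the strand of the gene. Bok lies at chr1:93685325-93685574 (+) and Mcl1 at chr3:95658471-95658720 (+). Bad has 2 start sites, with windows chr19:6941611-6941860 (+) and chr19:6942312-6942561 (+). Capitals mark the motif letters found.
Bok: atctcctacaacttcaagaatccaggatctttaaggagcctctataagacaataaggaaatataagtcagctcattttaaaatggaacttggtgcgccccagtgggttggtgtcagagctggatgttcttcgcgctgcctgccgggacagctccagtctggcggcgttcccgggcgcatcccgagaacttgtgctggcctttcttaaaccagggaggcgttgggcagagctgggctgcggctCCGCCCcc
Mcl1: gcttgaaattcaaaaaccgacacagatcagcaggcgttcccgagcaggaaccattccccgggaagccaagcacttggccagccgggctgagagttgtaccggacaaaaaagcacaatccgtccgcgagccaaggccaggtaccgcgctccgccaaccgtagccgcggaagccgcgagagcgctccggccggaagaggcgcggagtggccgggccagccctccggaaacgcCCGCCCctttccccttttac
Bad, first start site: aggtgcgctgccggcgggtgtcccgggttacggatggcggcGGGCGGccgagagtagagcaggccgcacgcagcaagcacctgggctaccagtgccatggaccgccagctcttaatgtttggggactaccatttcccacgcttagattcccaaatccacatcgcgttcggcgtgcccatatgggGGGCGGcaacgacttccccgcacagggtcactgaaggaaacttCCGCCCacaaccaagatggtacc
Bad, second start site: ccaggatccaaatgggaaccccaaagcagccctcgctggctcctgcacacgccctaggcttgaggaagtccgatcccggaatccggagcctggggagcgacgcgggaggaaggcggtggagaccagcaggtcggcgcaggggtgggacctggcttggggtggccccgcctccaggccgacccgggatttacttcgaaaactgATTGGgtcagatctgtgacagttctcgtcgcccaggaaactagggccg
On both strands, 6 motifs were searched: the GC box GGGCGG, the TATA box TATAAA, the CCAAT box (CCAAT), the E-box CACGTG, the FOXO core GTAAACA and the CRE core TGACG. The GC box was in the Bok and Mcl1 windows once each, 8 and 20 bases before the start, and 3 times in the first Bad window, whereas the second Bad window held only a CCAAT box. Among the 32851 promoter windows of the same length in the table, 32.7% held a GC box, 33.8% a CCAAT box, 12.4% a TATA box, 6.02% the E-box, 3.17% the FOXO core and 17.8% the CRE core. None of the 11 windows of the members held the FOXO core or the TATA box. Of the other members, Bcl2, Bax and Bid held the GC box, and Bcl2l1, with 3 windows, and Bak1 held none of the 6 motifs.

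The largest differences of the family from fed were those of Pmaip1 at 72 h (2.84) and of Bcl2l P07647 at 24 h (-1.80), with probes written here by the end of their name. At 12 h, 2 of the 15 member probes were called, 1 higher (Bad P16603) and 1 lower (Mcl1 P16780), where 10.9% of all probes were called. At 24 h, 3 were called, with Pmaip1 higher and Bcl2l P07647 and Mcl1 P16780 lower, against 10.1% of all probes. At 72 h, 5 were called, with Pmaip1, Bok, Bcl2l P09330 and Mcl1 P16780 higher and Bad P14151 lower, against 10.6% of all probes. As the members were chosen on such differences, nothing is read from these shares. All fasted pools with a value lay apart from the fed pools for 3 members at 12 h, 7 at 24 h and 6 at 72 h, among them Bad P16603 at 12 and 24 h and Bcl2l P09330 at 72 h with 2 fasted pools each, and for 30.8%, 40.4% and 41.8% of all probes. The members' median log2 differences after 12, 24 and 72 h were 0.02, 0.08 and 0.29, beside -0.02, 0.02 and 0.01 over all probes. With each array only centred on its median, the members' medians were -0.22, -0.08 and 0.18, so the first 2 have no settled sign. As most members were chosen on such differences, nothing is read from these medians at any time point.

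**Figure D1:**
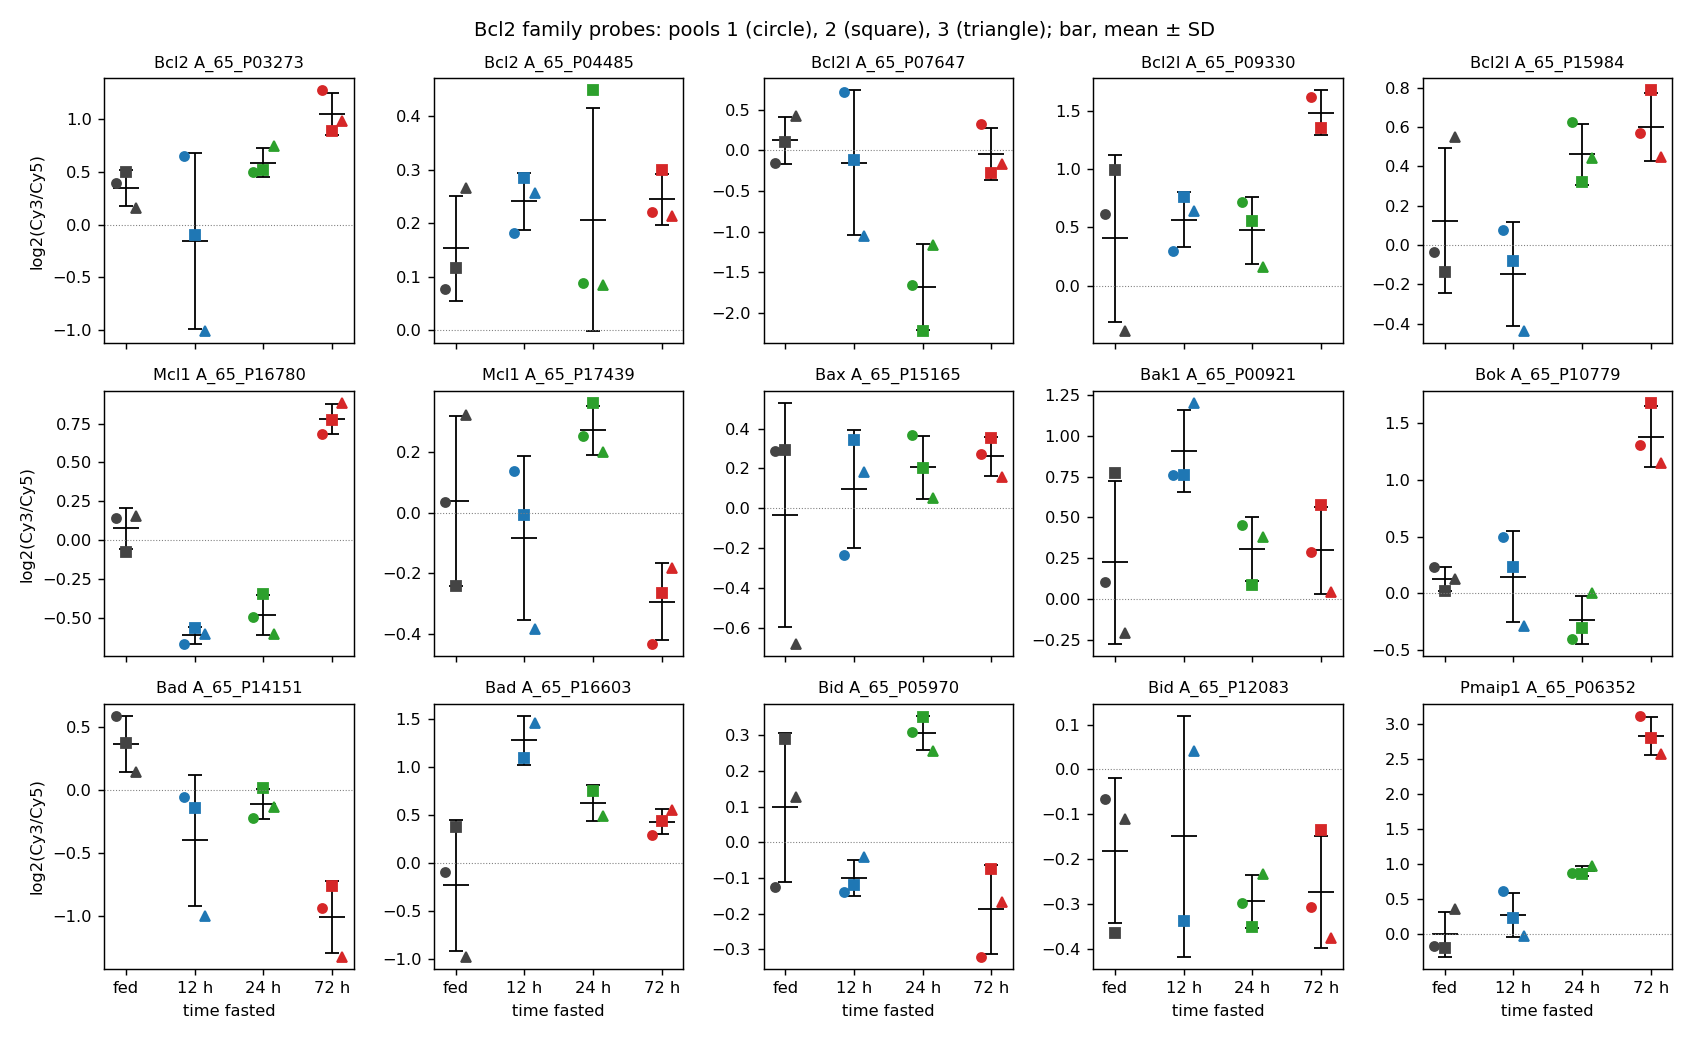
Log2(Cy3/Cy5) of the 15 member probes (vertical axes, each with its own range) in the 3 pools of each time point (horizontal axis), with mean ± SD over the pools that have a value. Pmaip1 has its highest mean, 2.83, at 72 h, and the probes of Mcl1, Bad and Bcl2l run apart from each other.

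Among the genes that hold cells alive, 1 of the 2 Mcl1 probes was lower than fed at 12 and 24 h and higher at 72 h. This probe, P16780, read 0.14, -0.08 and 0.15 in the fed pools, -0.67, -0.57 and -0.61 after 12 h of fasting and -0.50, -0.35 and -0.61 after 24 h, while the 72 h pools read 0.68, 0.78 and 0.88. Every fasted pool at 12 and 24 h was below, and every pool at 72 h above, the fed pools. The log2 differences from fed were -0.69 ± 0.14 (SE), -0.56 ± 0.14 and 0.71 ± 0.14. The fall at 12 h was not called without fed pool 1 (-0.65), and that at 24 h not without fed pool 1 (-0.52) or 3 (-0.52) or without the 24 h pool 1 (-0.55) or 3 (-0.50). In the Cy3 channel alone the 12 h difference was 0.09 and the 24 h difference -0.32, while the Cy5 reference read 0.78 and 0.24 higher than on the fed arrays. The rise at 72 h was called in Cy3 alone (0.88), but with median centring only it was 0.40 and not called. The second Mcl1 probe, P17439, which does not carry the symbol in the fed files, did not follow the first. It read 0.04, -0.24 and 0.32 in the fed pools, 0.14, -0.01 and -0.38 after 12 h of fasting and 0.25, 0.36 and 0.20 after 24 h, while the 72 h pools read -0.43, -0.26 and -0.18. Its groups overlapped with fed at each time, and its difference at 72 h was -0.33 ± 0.18. Across the 12 arrays the log ratios of the 2 probes had a Pearson r of -0.47.

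Bcl2l, the gene of Bcl-xL, was measured by 3 probes that did not agree. P09330 read 0.62, 0.99 and -0.39 in the fed pools, 0.30, 0.76 and 0.64 after 12 h of fasting and 0.71, 0.55 and 0.16 after 24 h, while the 72 h pools read 1.62 and 1.35, where pool 3 was marked as an outlier spot and has no value. The 72 h pools lay above the fed pools, with a difference of 1.08 ± 0.32 (n = 2 against 3). This call was lost without fed pool 1 (1.18) or 3 (0.68), without the 72 h pool 1 (0.94) or 2 (1.21), and without the 72 h array of pool 3 (1.08). It was kept in only 7 of the 13 other settings. The difference was 0.33 with median centring. In Cy3 alone it was 0.59 (limma, adjusted p = 0.519), and in the Cy5 reference -0.48. P07647, which like P09330 does not carry the symbol in the fed files, read -0.15, 0.10 and 0.42 fed, 0.72, -0.12 and -1.05 after 12 h of fasting and -1.66, -2.22 and -1.16 after 24 h, while the 72 h pools read 0.32, -0.27 and -0.17. Only the 24 h pools stood apart from fed, with a difference of -1.80 ± 0.36. In that comparison Cy3 differed by -0.28 and the Cy5 reference by 1.53, and the Cy3 signal of this probe at 24 h was 1.05 to 1.21 times the median of the negative-control spots. P15984, which carries the symbol in all files, read -0.04, -0.14 and 0.55 fed, 0.08, -0.08 and -0.44 after 12 h of fasting and 0.62, 0.32 and 0.44 after 24 h, while the 72 h pools read 0.57, 0.79 and 0.45. Its groups overlapped with fed throughout, fed pool 3 being high, and the difference at 72 h was 0.48 ± 0.20 and not called. It was called with loess (0.66), directly against the reference (0.60) and with array weights (0.64), as was the 24 h difference (0.34) in the latter 2 (0.46 and 0.51) and the 12 h difference (-0.27) with median centring (-0.74).

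Bcl2 itself had 2 probes and was not called against fed at any time. P03273 read 0.39, 0.49 and 0.15 fed, 0.65, -0.10 and -1.01 after 12 h of fasting and 0.50, 0.51 and 0.74 after 24 h, while the 72 h pools read 1.27, 0.89 and 0.98. The 24 h and the 72 h pools all lay above the fed pools, and the 12 h pools spread the most. The differences were -0.50 ± 0.30, 0.24 ± 0.30 and 0.70 ± 0.30, and the last was called with loess normalization (0.81), Feature Extraction's own log ratio (0.91), directly against the reference (1.05), with only the fed and 72 h arrays (0.70) and with array weights (0.64). The 12 h difference was called in Cy3 alone (-1.64), with array weights (-0.48) and without the 12 h pool 1 (-0.90). P04485 lay between 0.08 and 0.45 in all 12 pools, with differences from fed of 0.05 to 0.09 and pools that overlapped.

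Of the effectors, Bok rose at 72 h and Bax and Bak1 were not called against fed at any time. Bok read 0.23, 0.02 and 0.12 in the fed pools, 0.50, 0.23 and -0.29 after 12 h of fasting and -0.40, -0.30 and 0.005 after 24 h, while the 72 h pools read 1.31, 1.67 and 1.15. All 72 h pools were above all other pools. The differences from fed were 0.02 ± 0.21, -0.36 ± 0.21 and 1.25 ± 0.21, the last being 2.38-fold. At 72 h Cy3 alone differed by 1.32 and the Cy5 reference by 0.07, and the call was kept under all 13 other settings run and without any 1 array of the 2 groups.

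Bax, which moves from the cytosol to the membrane when it is turned on, read 0.29, 0.29 and -0.68 fed, -0.235, 0.34 and 0.18 after 12 h of fasting and 0.37, 0.20 and 0.05 after 24 h, while the 72 h pools read 0.27, 0.35 and 0.16. Fed pool 3 was the lowest of the 12, and the pools overlapped at each time. The differences from fed were 0.13 ± 0.24 (adjusted p = 0.75), 0.24 ± 0.24 (adjusted p = 0.551) and 0.29 ± 0.24 (adjusted p = 0.488). Without fed pool 3 the sign turned in all 3 comparisons of Bax, to -0.19, -0.08 and -0.03 (adjusted p = 0.561, 0.833 and 0.952). Bak1, an effector that sits in the membrane, read 0.10, 0.77 and -0.21 fed, 0.76, 0.76 and 1.20 after 12 h of fasting and 0.45, 0.08 and 0.38 after 24 h, while the 72 h pools read 0.28, 0.57 and 0.04. The 12 h pools were high but overlapped with fed pool 2. The difference at 12 h was 0.68 ± 0.24 (adjusted p = 0.0757), was called in Cy3 alone (1.18) and directly against the reference (0.91), and became 0.96 and was called without fed pool 2. At 24 h and 72 h the differences of Bak1 were 0.08 ± 0.24 and 0.08 ± 0.24 (adjusted p = 0.857 and 0.877), and -0.13 and -0.14 without fed pool 3.

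**Figure D2:**
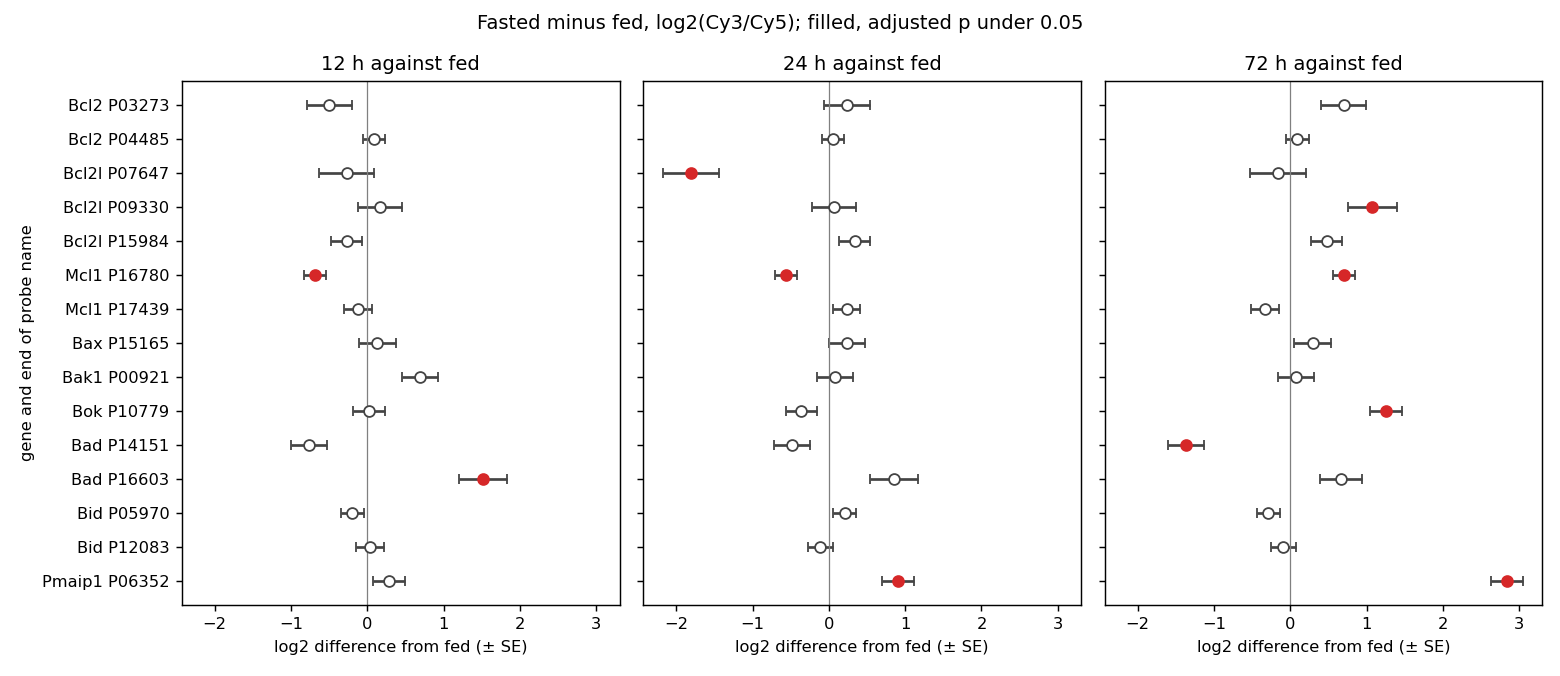
Log2 difference of the fasted from the fed pools (horizontal axis, ± SE) for the 15 member probes, by time point, with filled points for the calls. The points of 1 gene lie on opposite sides of 0 for Mcl1, Bad and Bcl2l at 72 h, and Pmaip1 has the highest value, 2.84.

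Among the BH3-only genes, Pmaip1 had the largest rise of the family. Its probe read -0.17, -0.21 and 0.36 in the fed pools, 0.61, 0.23 and -0.02 after 12 h of fasting and 0.87, 0.86 and 0.98 after 24 h, while the 72 h pools read 3.12, 2.80 and 2.57. The 12 h pools overlapped with the fed pools, all 24 h pools lay above both, and all 72 h pools lay above all others. The differences from fed were 0.28 ± 0.21, 0.91 ± 0.21 and 2.84 ± 0.21, the last being 7.14-fold. At 72 h the value ranged from 2.26 to 3.67 over all other settings and left-out arrays and was always called. The 24 h call was lost without fed pool 1 (0.82) or 2 (0.81) or without the 24 h pool 1 (0.92) or 3 (0.87). The Cy5 reference of this probe also read higher than on the fed arrays, by 0.99 at 24 h and 0.83 at 72 h, and in Cy3 alone the differences were 1.90 and 3.67.

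Bad, which is held inactive by phosphorylation and 14-3-3 proteins, had 2 probes that ran in opposite directions. P14151 read 0.59, 0.37 and 0.14 fed, -0.05, -0.14 and -0.995 after 12 h of fasting and -0.22, 0.02 and -0.13 after 24 h, while the 72 h pools read -0.93, -0.76 and -1.32. The pools of each fasted time lay below the fed pools, with differences of -0.76 ± 0.23, -0.48 ± 0.23 and -1.37 ± 0.23. The 12 h difference, not called, was called with median centring (-1.13), array weights (-0.65), the pool number as a block (-0.76), the methods' thresholds (-0.76) and without the 12 h pool 1 (-0.94), and the 24 h difference with array weights (-0.59). The 72 h difference was called, and it was called in all 13 other settings and without any 1 array of the 2 groups, while Cy3 alone differed by -1.36 and the reference by 0.01. P16603 read -0.09, 0.37 and -0.98 fed, 1.10 and 1.46 after 12 h of fasting and 0.75 and 0.49 after 24 h, while the 72 h pools read 0.29, 0.43 and 0.55, with pool 1 left out at 12 and 24 h as an outlier spot. The pools of 12 and 24 h lay above the fed pools, those of 72 h overlapped with fed pool 2, and fed pool 3 was far below the others. The differences were 1.51 ± 0.31 (n = 2 against 3), 0.86 ± 0.31 (n = 2 against 3) and 0.66 ± 0.28. The 12 h call was kept in 9 of the 13 other settings and was lost without the 12 h pool 3 (1.33). At 12 h the Cy3 channel alone differed by -0.71 and the reference by -2.22. The 24 and 72 h differences, not called, were called without fed pool 2 (1.16 and 0.96). Over the 10 arrays with both values the 2 Bad probes had a Pearson r of -0.44.

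Bid, which caspase-8 cleaves to carry the death receptor signal to the mitochondrion, was not called against fed with either probe. P05970 read -0.12, 0.29 and 0.13 fed, -0.14, -0.12 and -0.04 after 12 h of fasting and 0.31, 0.35 and 0.26 after 24 h, while the 72 h pools read -0.32, -0.07 and -0.17. Its pools overlapped with fed at each time, and the differences were -0.20 ± 0.15, 0.21 ± 0.15 and -0.29 ± 0.15 (adjusted p = 0.403, 0.394 and 0.256). P12083 lay between -0.38 and 0.04 in the 11 pools with a value and differed from fed by 0.03, -0.11 and -0.09 (adjusted p = 0.926, 0.691 and 0.776).

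The 2 channels were also read apart, since by protocol every array carries the same reference, which holds no RNA of fasted mice. In the Cy5 channel, 5 of the 15 member probes were called at 12 h and 4 at 24 h, where 21.9% and 20.4% of all probes were called. At 72 h 0 members and 0% of all probes were called in Cy5 by limma, with 1 member at an unadjusted p under 0.05. The largest Cy5 differences were -2.64 (adjusted p = 0.000478) at 12 h and -2.14 (adjusted p = 0.000674) at 24 h, both of Bcl2l P09330. The Cy3 differences of that probe were -2.48 and -2.07, so that its ratio differed from fed by 0.16 and 0.07, and by -0.24 and -0.33 without fed pool 3. The difference in Cy5 was larger in size than that in Cy3 for 9 members at 12 h, 8 at 24 h and 7 at 72 h.

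**Figure D3:**
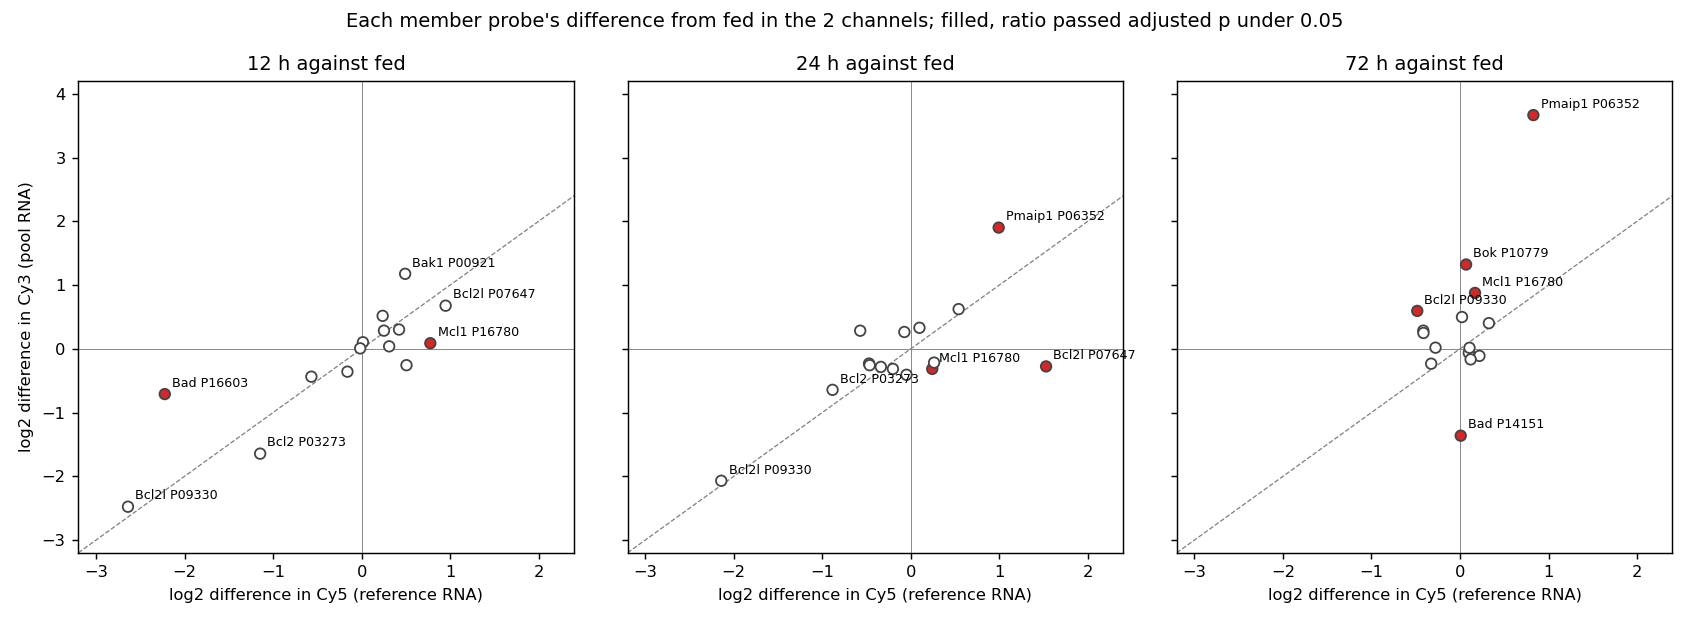
Log2 difference from fed in the Cy3 channel (vertical axis) against that in the Cy5 reference channel (horizontal axis) for the 15 member probes, by time point, with a dashed line where the ratio is unchanged. At 72 h, 4 of the 5 called probes (Pmaip1, Bok, Mcl1 P16780 and Bad P14151) leave the line through Cy3, while Bad P16603 at 12 h and Bcl2l P07647 at 24 h leave it through Cy5.

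The signal of each probe was also set against its array's background. Over the median of the 162 negative-control spots of its array, Bcl2l P09330 reached 2.53 to 184 times in Cy3, Bad P16603 2.24 to 76.7 times and Pmaip1 1.81 to 44.4 times. Bcl2l P07647, Bcl2 P04485 and both Bid probes were under 1.5 times the negative controls in 8 or 9 of the 12 pools, Bax in 7, Bok in 5, Bak1 in 4 and Bcl2 P03273 in 3. The other 7 probes were above 1.5 times in all 12 pools. The 12 h arrays had 7 or 8 members under 1.5 times, and fed pools 1 and 2 had none. The scanner software marked a member as not well above background for Bcl2l P07647 in fed pools 1 and 2, Bak1 in fed pool 3 and Bid P05970 in the 12 h pool 1, so at no time point in all 3 pools.

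**Figure D4:**
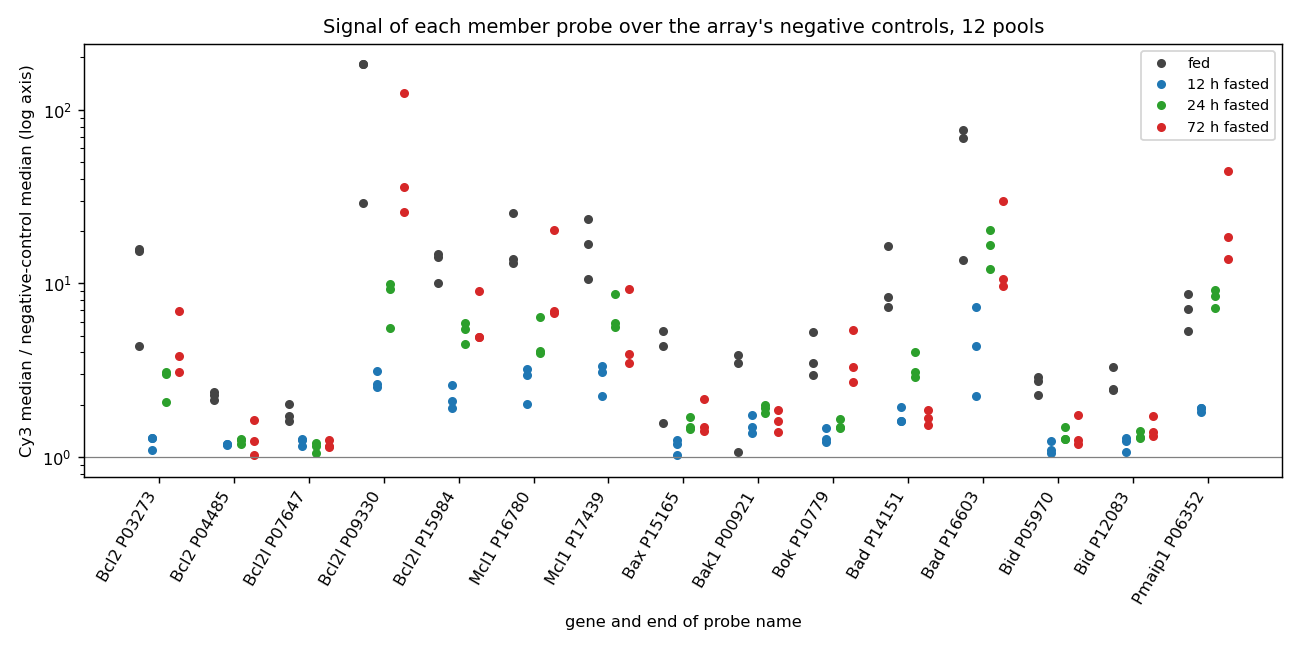
Cy3 median of each member probe over the median of the negative-control spots of the same array (vertical axis, log scale), by time point, for the 12 pools. Each 12 h array has 7 or 8 probes under 1.5, and Bcl2l P07647, Bcl2 P04485 and both Bid probes are under it in 8 or 9 of the 12 pools.

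Between the fasting times, the same fit was used with the fed pools out of the contrast. These comparisons share the pools on which the genes were selected and each other's pools, and are no independent support. From 12 to 24 h, 1 member probe was called where 2.92% of all probes were: Bcl2l P07647 was lower at 24 h by 1.53 ± 0.36 on the log2 scale (difference -1.53, adjusted p = 0.0368). The call was lost without the 12 h pool 1 (-1.10) or 2 (-1.51) and without any 1 of the 24 h pools (-1.26 to -1.79). From 12 to 72 h, 5 were called, all higher, where 10.8% of all probes were. Pmaip1 was higher by 2.56 ± 0.21 (adjusted p = 4.59e-05), Mcl1 P16780 by 1.395 ± 0.14 (adjusted p = 0.000225) and Bok by 1.23 ± 0.21 (adjusted p = 0.00314). Bcl2 P03273 was higher by 1.20 ± 0.30 (adjusted p = 0.0206), a call lost without the 72 h pool 1 (1.09) or 3 (1.23). Bcl2l P15984 was higher by 0.75 ± 0.20 (adjusted p = 0.0299), a call lost without the 12 h pool 3 (0.60) and without any 1 of the 72 h pools (0.66 to 0.83).

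From 24 to 72 h, 6 of the 15 members were called where 10.6% of all probes were, with 4 higher and 2 lower at 72 h. Pmaip1 was higher by 1.93 ± 0.21 (adjusted p = 0.000294), Bok by 1.61 ± 0.21 (adjusted p = 0.000683) and Mcl1 P16780 by 1.26 ± 0.14 (adjusted p = 0.000356). In both comparisons with 72 h, these 3 were called without any 1 array of the groups compared and in all 12 other settings. The other Mcl1 probe, P17439, ran the other way from 24 to 72 h, at -0.56 ± 0.18, with every 72 h pool below the 24 h pools. It was not called, but was with loess (-0.47), only the arrays of the 2 time points (-0.56), array weights (-0.57) and the methods' thresholds (-0.56). From 12 to 72 h P17439 was at -0.21 ± 0.18 and not called. Bcl2l P07647 was higher by 1.64 ± 0.36 (adjusted p = 0.0125), but differed by 0.21 in Cy3 alone, and was not called without the 24 h pool 2 (1.37) or the 72 h pool 1 (1.46). Bad P14151 was at -0.89 ± 0.23 (adjusted p = 0.0276), a call lost without any 1 of the 24 h pools (-0.83 to -0.94) and without the 72 h pool 1 (-0.93) or 3 (-0.73). Bid P05970 was at -0.49 ± 0.15 (adjusted p = 0.0497), and this call was lost without any 1 of the 6 pools (-0.43 to -0.55).

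Other genes of apoptosis were followed from lists of symbols, with the brightest probe of each gene. Of 56 such genes on the array, 4 were higher and 7 lower than fed after 12 h. The counts were 3 and 8 after 24 h, then 4 and 8 after 72 h, with median differences of -0.02, -0.03 and -0.14. Over all probes, 10.9%, 10.1% and 10.6% were called at these times. The lists were drawn up with earlier results of these data known, and most genes named were picked for their small p. Casp1, Casp6, Cycs and Akt1 are also among the apoptosis genes that the study reported as changed on these samples. Nothing is therefore read from the counts of this or the other lists, and the adjusted p-values are a description. In the mitochondrial pathway and caspases, 1 of 13 was higher and 5 lower at 12 h, and 4 were lower and none higher at 24 and at 72 h. Casp6, an executioner caspase, was at -0.66 ± 0.19, -0.89 ± 0.19 and -1.84 ± 0.19 at 12, 24 and 72 h (adjusted p = 0.0404, 0.0125 and 0.000111). Casp1, the caspase that matures interleukin-1β, was at -1.02 ± 0.26 (n = 2 against 3), -0.98 ± 0.23 and -1.97 ± 0.23 (adjusted p = 0.0278, 0.0216 and 0.000366). Cycs, the cytochrome c that Bax and Bak1 pores release, was at -0.82 ± 0.22, -0.96 ± 0.22 and -1.79 ± 0.22 (n = 3 against 2, adjusted p = 0.0353, 0.0187 and 0.00042).

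Of 11 other Bcl2 family genes, none was called at 12 h and 1 was higher and 1 lower at 24 h and at 72 h. Bcl2l11, which codes for the BH3-only protein Bim, rose by 0.63 ± 0.14 at 24 h and 0.53 ± 0.14 at 72 h (adjusted p = 0.0166 and 0.0284). Bnip3l, a mitophagy receptor, was at -1.02 ± 0.20 at 24 h (adjusted p = 0.00821), and its relative Bnip3 at -0.54 ± 0.16 at 72 h (adjusted p = 0.0464). Of 7 genes of p53 and its targets, none was higher and 1 lower at 12 h, none higher and 2 lower at 24 h, and 2 higher and 1 lower at 72 h. Cdkn1a, the cell cycle inhibitor p21, rose by 1.44 ± 0.26 (adjusted p = 0.00285) and Trp53inp1 (Stinp in the files) by 0.73 ± 0.18 (adjusted p = 0.0198), and Ccng1 was at -1.10 ± 0.18 (adjusted p = 0.00205). All 3 are known targets of p53, as is Pmaip1, and the part of p53 in these values was not tested.

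Of 17 inhibitors of apoptosis and Bcl2 partners, 2 were higher and 1 lower at 12 h, and 1 each at 24 and 72 h. Birc2 by its gene number, a ubiquitin ligase of the IAP family whose probe the array files name Birc3, was at -1.13 ± 0.15 and -0.93 ± 0.15 at 12 and 24 h (adjusted p = 0.00196 and 0.00372) and -0.28 ± 0.15 at 72 h (adjusted p = 0.284). The probe that the files name Birc2, Birc3 by its gene number, was at -0.43 ± 0.21 and -0.56 ± 0.21 at 12 and 24 h (adjusted p = 0.185 and 0.101). Bag3, a co-chaperone that binds Bcl2, rose by 1.38 ± 0.26 and 1.08 ± 0.26 at 12 and 24 h (adjusted p = 0.00733 and 0.0195). Akt1, a kinase that phosphorylates Bad, rose by 2.15 ± 0.43 at 72 h (adjusted p = 0.0053), and its second probe by 1.42 (adjusted p = 0.0239). Of 8 death receptor genes, 1 was higher at 12 and 24 h and 1 lower at 72 h. Ripk1, a kinase of the receptor complex, rose by 0.74 ± 0.18 and 0.64 ± 0.18 at 12 and 24 h (adjusted p = 0.0206 and 0.0366), Fadd, its adaptor, was at -0.73 ± 0.20 at 72 h (adjusted p = 0.0303), and Fas (Tnfrsf6 in the files) was not called, with 0.77 ± 0.32 at 12 h (adjusted p = 0.124).

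Markers of the cell types in the wall were followed as well. Of all probes, 10.9%, 10.1% and 10.6% were called against fed at 12, 24 and 72 h, and nothing about cell types is read from the counts. Markers of a list did not always agree. At 12 h, smooth muscle Acta2 was at 2.38 beside Cnn1 at -0.08, and enterocyte Anpep at 3.43 beside Lct at -0.98. Of 5 smooth muscle markers, 3, 1 and 2 were higher than fed after 12, 24 and 72 h, with median differences of 1.73, 0.50 and 0.16. Of 4 markers of proliferating cells, 1, 1 and 2 were lower, with medians of -0.42, -0.37 and -0.64, and of 3 B and plasma cell markers 0, 1 and 2 were lower. Of 4 enterocyte markers, 1 was higher and 1 lower at 12 h, none was called at 24 h and 1 was lower at 72 h. The 2 T cell markers, and the 1 marker each for adipose tissue, exocrine pancreas and goblet or Paneth cells, were not called against fed. The gene of the goblet or Paneth list was Lyz2, and no other gene of that list was measured. Neither goblet nor Paneth cells are therefore taken as followed. On another scale, the raw Cy3 signal summed over a list and divided by the median negative control, all 8 marker lists lay lower in the 12 h pools than in the fed pools. The smooth muscle sum was 69.6 to 167 fed, 13.3 to 22.6 at 12 h, 26.5 to 43 at 24 h and 28.9 to 74.9 at 72 h, and the enterocyte sum 239 to 473, 30.5 to 69.5, 106 to 187 and 72.2 to 178. The negative controls themselves read 83.5 to 133.75 on the fed arrays, 210.5 to 251.5 at 12 h, 119 to 122 at 24 h and 172 to 202.75 at 72 h, so these sums are no measure of change between time points. The part of the marker genes in the members' values was not tested.

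For the 3 member probes with the largest difference from fed, the genes with the most similar log ratios over the arrays were sought, as a description. The patterns most like Pmaip1 over the 12 arrays were those of Mbl2, a mannose-binding lectin (Pearson r = 0.96), Glul, the glutamine synthetase (r = 0.95), and Midn (r = 0.93), which differed from fed at 72 h by 1.64, 1.57 and 1.42. Most like Bcl2l P07647 over the 12 arrays were Eif2ak4, the amino acid sensing kinase (r = 0.95), Tcea1 (r = 0.94) and Pem (r = 0.93). Most like Bad P16603 over 10 arrays were Fkbp1a (r = 0.97), Atp6ip1 (r = 0.97) and Gnb2 (r = 0.97). Both of these member probes differed from fed mainly through the reference. Bcl2l P07647 at 24 h differed by 1.53 in Cy5 and -0.28 in Cy3, and was under 1.5 times the negative controls in 9 pools. Bad P16603 at 12 h differed by -2.22 in Cy5 and -0.71 in Cy3. The part of the reference channel in these likenesses was not tested, so they are not read as shared expression.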

How the data were processed

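RNA from 12 pools of small intestine was hybridised by the authors to 2-colour Agilent arrays. The authors deposited Feature Extraction 6.1.1 output, whose median foreground and background intensity per spot and channel is neither corrected nor normalized. The deposited files also hold flags and the software's background- and dye-corrected log10 ratio (Cy5 to Cy3), in which the decimal point of some cells was moved (0.129% of the ratios read here). The deposited table of processed values is this ratio with its sign turned. The methods subtract background, quantile normalize and call changes by a Split-Factor analysis of variance, which was not repeated.

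Here background was corrected with normexp (offset 50), 1075 control and 91 retired spots and outlier spots were left out, and the 24 channels were quantile normalized. log2(Cy3/Cy5) was fitted with limma 3.58.1 in R 4.3.3 (data.table version 1.17.8) with a mean per time point over 12 arrays, with Benjamini-Hochberg adjustment over all probes and calls at an adjusted p under 0.05. The fit was tested on simulated data. P-values measure the spread between the arrays of a time point, in which differences of pool, labelling and hybridisation cannot be told apart. The estimate of this spread is shared by all time points, so a wide spread at any of them enters every comparison.

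Every member probe is named, then up to 3 genes per list with the smallest p against fed, and the 3 genes most like each of the 3 members with the largest differences. Members and lists were chosen with earlier results of these data known. Members are named as in the 12 h files, and list genes by the files' gene number in RefSeq, which renames some probes. For the Bcl2l probes, gene numbers match Bcl2l1 in RefSeq. Alternatives were other normalizations, background corrections, filters, channels, fits and left-out arrays. Signal over background and the number of arrays limit the precision.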

Additional observations from a re-analysis of the deposited data

Results flagged for a closer look

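With 3 pools a time point, no pool was tested as an outlier. Results are listed here because a member differed between 2 fasting times in limma's contrast between them. Each value is a log2 difference of the later minus the earlier time. These contrasts share the pools on which most of the genes were selected, so the list is a description and no independent support. Between 12 and 24 h this was Bcl2l P07647, at -1.53. Between 12 and 72 h these were Pmaip1, at 2.56, Mcl1 P16780, at 1.395, Bok, at 1.23, Bcl2 P03273, at 1.20, and Bcl2l P15984, at 0.75. Between 24 and 72 h these were Pmaip1, at 1.93, Bcl2l P07647, at 1.64, Bok, at 1.61, Mcl1 P16780, at 1.26, Bad P14151, at -0.89, and Bid P05970, at -0.49. The 24 h values of Bcl2l P07647 came with a reference that read 1.53 higher than on the fed arrays. Its part in the result was not tested.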

How the results depend on the processing

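Of the 22 calls of member probes in the 6 comparisons, 22 were kept with loess, with dim probes left out, with array weights and with the methods' thresholds, 21 with plain subtraction and with outlier spots kept, 20 with Feature Extraction's log ratio, 19 with no background correction, 18 with median centring, 16 with only the arrays of the 2 time points and 14 in Cy3 alone. In Cy3 alone 3 turned in sign: Mcl1 P16780 (0.0877) and Bad P16603 (-0.71) at 12 h, and Bid P05970 from 24 to 72 h (0.0911). Members not called in the ratio but called in Cy3 with the opposite sign were Bcl2l P09330 at 12 h (-2.48) and 24 h (-2.07) and Bcl2l P07647 at 12 h against fed (0.68) and from 12 to 72 h (-0.74).

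The number of members called against fed at 12 h (2) was 1 with Feature Extraction's ratio, 4 in Cy3 alone, 0 with only the arrays of the 2 time points and 5 with array weights. At 24 h (3) it was 5 with array weights, and at 72 h (5) it was 3 with median centring. From 12 to 24 h (1) it was 0 without background correction, 2 in Cy3 alone, 0 with the 2 time points' arrays only, 4 with array weights and 3 at an unadjusted p under 0.01 and 1.4-fold. From 12 to 72 h (5) it was 3 with the 2 time points' arrays only and 8 with array weights. The share of all probes called moved too: with array weights it was 32.1%, 29.9%, 9.26% and 23.2% in these 4 comparisons (12, 24 h against fed, 12 to 24 h, 12 to 72 h), with the 2 time points' arrays only 0%, 16.0%, 0.118% and 2.99%, and in Cy3 alone 15% at 12 h and 8.20% from 12 to 24 h. It was 13.9% at 72 h with median centring and 10.3% at 12 h with Feature Extraction's ratio. From 12 to 24 h it was 1.79% without background correction and 8.23% at the methods' thresholds. Nothing about the members is read from these counts. Leaving out 1 array gave 1 to 4 members at 12 h, 1 to 3 at 24 h, 4 to 6 at 72 h, 0 to 2 from 12 to 24 h, 3 to 5 from 12 to 72 h and 3 to 5 from 24 to 72 h. Over all probes the shares were then 3.14% to 22.6%, 2.89% to 5.96%, 4.2% to 8.68%, 0.829% to 7.35%, 3.03% to 16.2% and 2.72% to 6.87%. Nothing is read from these counts either.

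Of the other apoptosis genes, 11 were called at 12 h, 11 at 24 h, 12 at 72 h, 0 from 12 to 24 h, 14 from 12 to 72 h and 9 from 24 to 72 h. The shares over all probes were 10.9%, 10.1%, 10.6%, 2.92%, 10.8% and 10.6%. With array weights they were 25, 21, 30 and 4 in the first 4 and 19 in the last. With only the 2 time points' arrays they were 0 at 12 h, 20 at 72 h, 5 from 12 to 72 h and 16 from 24 to 72 h. Median centring gave 19 at 24 h, 21 at 72 h, 4 from 12 to 72 h and 5 from 24 to 72 h. In Cy3 alone they were 4 at 12 h, 21 at 24 h and 2 from 12 to 24 h. Without background correction they were 7 at 12 h and 7 at 24 h, directly against the Cy5 reference 17 at 12 h and 21 at 72 h, with Feature Extraction's ratio 9 from 12 to 72 h, and at the methods' thresholds 3 from 12 to 24 h. Leaving out 1 array gave 2 to 15, 3 to 9, 7 to 12, 0 to 4, 3 to 17 and 0 to 5 in the same order. The share of all probes called also moved, between 0% and 33.2% over settings and comparisons. Nothing about these genes is read from the counts. The cause of these changes was not tested.

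Over all probes, the share of calls that were higher at 72 h than fed was 45.3% and 31.7% with median centring. At 12 h it was 44.9% and 34.3% with Feature Extraction's ratio, and at 24 h 37.7%, 47.7% with median centring and 48.7% without background correction. From 12 to 24 h it was 42.1%, and 25.5%, 11.4% and 27.3% with loess, median centring and Feature Extraction's ratio, and 53.1% in Cy3 alone. From 12 to 72 h it was 54.3% and 65.3% with median centring.

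The pools share numbers but not mice, and same-numbered pools did not deviate together (r of -0.297 to 0.128 over 18 pairs, mean -0.042). With the pool number as a replicate block, 2, 2, 4, 0, 4 and 5 members were called in the 6 comparisons in the order above, and 4 of the other apoptosis genes at 12 h. Over all probes, 6.4%, 7.36%, 8.42%, 1.93%, 8.19% and 8% were called in that fit, and nothing about the members is read from the counts. Of the 22 calls, 16 were kept. Slide and scan date were not in the files used here, so no fit with them was run.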
